A study of Mus musculus with 2 samples.

Results

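The 10 genes described here, Dntt, Satb1, Notch1, Il7r, Ly6d, Blnk, Rag1, Rag2, Wfdc17 and Il12a, mark lymphoid priming or the lymphoid cells that follow it, or were listed with such genes. They were matched by symbol, and all 10 were present among the 31053 genes of the deposited matrices. Their unique molecular identifiers (UMIs), each of which counts 1 captured RNA molecule, were followed in 6375 cells of a naive library and 4839 cells of a Listeria library.

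Both libraries were prepared from mouse bone marrow cells labelled as haematopoietic stem cells (HSCs), with 1 library for each group. Wild-type C57BL/6J mice left untreated gave the naive library. Wild-type C57BL/6J mice challenged with the intracellular bacterium Listeria monocytogenes gave the Listeria library, at 6 weeks after the challenge. The labels put the mice of both groups at 6 to 8 weeks old, without saying at which step. The number of mice per library and the markers used to purify HSCs are not given in the sources used here. The deposited name of the Listeria matrix carries the letters KO although its labels say wild type, so a difference in genotype and the challenge cannot be told apart. With 1 library per group no test was possible, and every difference below compares these libraries, not the conditions.

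In lymphoid priming, a multipotent progenitor transcribes genes of lymphocyte development while other fates are still open to it. Such progenitors carry the cytokine receptor Flt3 on their surface. The programme includes chromatin organisers and receptors such as Satb1, Notch1 and Il7r, then the machinery that cuts and joins antigen receptor genes (Rag1, Rag2 and Dntt), and adaptors of the receptor assembled from them (Blnk). Commitment to the B lineage follows when Ebf1 and Pax5 switch on B cell genes such as Cd79a.

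Cells were divided by marker UMIs, without use of any of the 10 genes. A B-lineage cell had UMIs of at least 3 of 8 B-lineage genes, among them Cd79a, Vpreb1, Igll1 and Ebf1. An early Flt3-positive cell had at least 1 Flt3 UMI and none of those 8 genes. In both cases under 3 of 8 markers of each of 7 other classes were allowed (megakaryocyte, myeloid granule, erythroid, T and NK, innate lymphoid progenitor, dendritic and plasma). The HSC range needed at least 3 of 10 HSC markers, 0 Flt3 UMIs, 0 B-lineage genes and the same limit on the 7 other classes. These are ranges of marker counts, not cell types. The early Flt3-positive range held 827 naive and 725 Listeria cells, of which 495 and 448 had exactly 1 Flt3 UMI and so lay at its edge. The B-lineage range held 1291 and 374 cells, which was 20.3% and 7.73% of the cells of each library. Of the cells beside its edge, 32 and 5 had exactly 3 B-lineage genes and 128 and 15 had exactly 2, whereas 1087 and 322 had 7 or 8. The HSC range held 959 and 1087 cells, a minority of each library. Missing its limits does not show that a cell is not an HSC. The median early Flt3-positive cell had 2 of the 10 HSC markers in both libraries, 1 myeloid granule marker and 1 innate lymphoid progenitor marker. The median B-lineage cell had 8 naive and 7 Listeria B-lineage genes and 0 HSC markers. Median depth was 6699 and 7019 UMIs in the early Flt3-positive range and 8837 and 9535 in the B-lineage range.

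The libraries held 64619150 naive and 43895966 Listeria UMIs in all, of which 78.6% and 89.4% lay in the kept cells. There were 14 cell barcodes that occurred among the kept cells of both libraries. Doublets were not removed, and 361 naive and 138 Listeria cells met the markers of more than 1 range and were placed in none. Levels are given as UMIs per 1e+06 UMIs of the cells summed (CPM) with exact Poisson intervals. Shares of cells with a UMI are given with exact Clopper-Pearson intervals, and ratios with exact intervals from the split of the UMIs. All intervals are at 95% and cover counting error only. Because a share of cells with a UMI depends on depth, each cell was also thinned at random to 2500 UMIs, and such shares are called thinned.

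Several of the genes lie beside each other in the mm10 genome, by GENCODE vM21 annotation. Blnk (chr19:40928927-40994535, minus strand) and Dntt (chr19:41029275-41059525, plus strand) point away from each other across 34739 bases with 0 genes lying wholly between them. Rag2 (chr2:101624718-101632529, plus) and Rag1 (chr2:101638282-101649501, minus) point toward each other across 5752 bases. The gene B230118H07Rik on the minus strand reaches into that gap and shares 80 exonic bases with Rag1, so reads from those bases are ambiguous between them. Satb1 (chr17:51736187-51833290, minus) shares 156 exonic bases with other genes on its strand. The other genes are Notch1 (chr2:26457903-26516663, minus), Il7r (chr15:9505788-9530176, minus), Ly6d (chr15:74762056-74763620, minus), Wfdc17 (chr11:83703991-83706268, plus) and Il12a (chr3:68690644-68698547, plus), which share no exonic base with a gene on their own strand. All 10 are protein coding, and 3′ libraries count the end of the transcript only.

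Sequence before the annotated start is shown for Dntt, the recombination gene detected most often in early Flt3-positive cells. It is also shown for the Rag pair, which was detected least often in those cells. RefSeq promoter sequences (GRCm38.p6) were found for 9 of the 10 genes. Each line gives the 250 bases before a start, 5′ to 3′ on the gene's strand. Capitals mark matches, on either strand, to CAGNTG (the E protein E-box), TGTGGT (Runx), TGGGAA (Ikaros) or GAGGAA (PU.1), or to the Ebf motif, a palindrome with 2 free bases at its centre.
Dntt, chr19:41029025-41029274, plus: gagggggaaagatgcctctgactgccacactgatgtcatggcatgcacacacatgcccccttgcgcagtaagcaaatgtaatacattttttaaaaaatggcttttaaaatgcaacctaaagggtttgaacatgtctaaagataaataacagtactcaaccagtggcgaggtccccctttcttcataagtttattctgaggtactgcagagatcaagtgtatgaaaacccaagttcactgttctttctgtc
Rag1, chr2:101649533-101649782, minus: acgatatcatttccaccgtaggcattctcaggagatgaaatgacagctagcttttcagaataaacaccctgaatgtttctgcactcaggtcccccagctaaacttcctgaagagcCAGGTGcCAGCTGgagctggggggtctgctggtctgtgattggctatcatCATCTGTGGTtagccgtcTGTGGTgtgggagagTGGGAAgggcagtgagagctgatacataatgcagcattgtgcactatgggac
Rag2, chr2:101624462-101624711, plus: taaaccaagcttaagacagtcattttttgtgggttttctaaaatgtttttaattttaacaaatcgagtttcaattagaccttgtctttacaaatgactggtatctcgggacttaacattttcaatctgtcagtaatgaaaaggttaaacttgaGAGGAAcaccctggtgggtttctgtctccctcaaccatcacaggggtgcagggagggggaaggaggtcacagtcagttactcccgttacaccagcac
The Dntt window held 0 matches to the 5 motifs. The Rag1 window held 3 matches to CAGNTG, 2 to TGTGGT and 1 to TGGGAA, and 1 of its CAGNTG matches overlapped a TGTGGT match. The Rag2 window held 1 match, to GAGGAA. Among 32851 RefSeq promoters of the same length, 44.8% held CAGNTG, 14% TGTGGT, 21.6% TGGGAA, 23.3% GAGGAA and 0.779% the Ebf motif. The matches are a description of these letters and not of binding.

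In early Flt3-positive cells, where no B-lineage gene was detected, Satb1, Dntt, Wfdc17 and Notch1 were found most often. Il12a came next, and Ly6d, Blnk, Il7r, Rag1 and Rag2 followed. This is an order of detection, which reflects level and capture, and not a comparison of levels between genes. In the naive library the thinned shares were 14.4% for Dntt, 14.3% for Satb1 and 13.1% for Wfdc17, whose intervals overlapped from 10.8% to 17.0%. Notch1 stood below them at 8.46% (6.66% to 10.6%) and Il12a below Notch1 at 4.11% (2.86% to 5.70%). The shares of Il12a, Ly6d (2.90%), Blnk (2.78%), Il7r (1.09%), Rag1 (0.484%) and Rag2 (0 of 827 cells, which allows up to 0.363%) each overlapped the next in line. In the Listeria library the order was Satb1 (13.1%), Dntt (9.24%), Notch1 (8.00%), Wfdc17 (7.17%) and Il12a (4.41%), and no neighbours among these 5 were separated beyond their intervals. A gap then separated Il12a from Blnk (0.828%), Ly6d (0.690%), Il7r (0.552%), Rag1 (0.276%) and Rag2 (0.138%). Of the 45 pairs of genes, 42 stood in the same order in both libraries. The pairs that changed places were Dntt with Satb1, Notch1 with Wfdc17 and Ly6d with Blnk. This order holds for the early range only. Over all Flt3-positive cells (1707 and 1071), B-lineage genes allowed, the naive order began with Dntt (27.9%), Satb1 (18.3%), Blnk (14.8%) and Ly6d (12.1%). Wfdc17 (9.61%) and Notch1 (8.79%) followed. In the Listeria library Dntt (14.8%), Satb1 (14.1%), Notch1 (8.12%) and Wfdc17 came before Blnk (5.6%), Il12a (5.51%) and Ly6d (3.55%). There 39 of the 45 pairs stood in the same order.

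**Figure D1:**
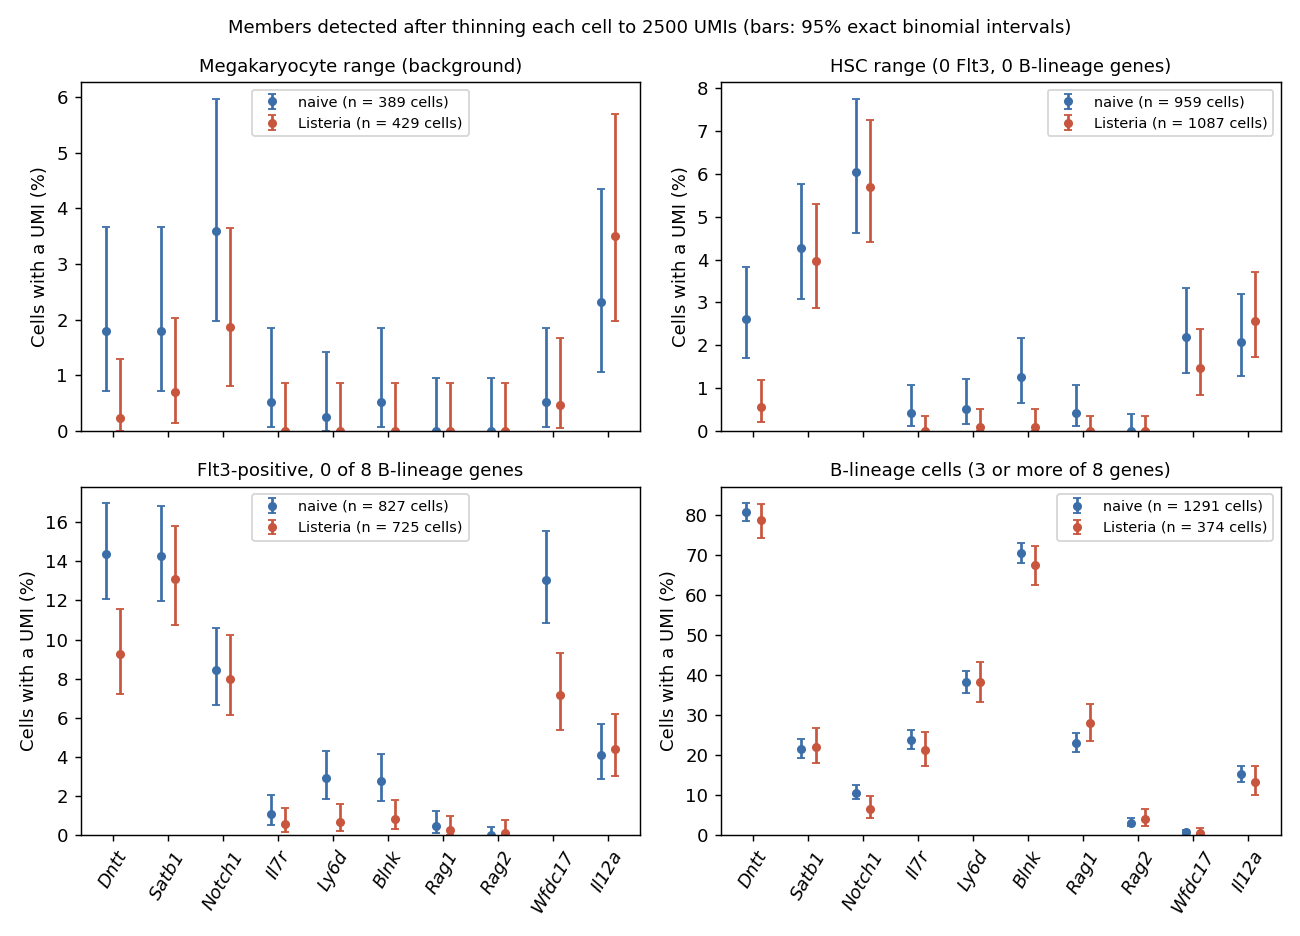
Thinned share of cells with a UMI (vertical axes, percent) of each of the 10 genes in the megakaryocyte, HSC, early Flt3-positive and B-lineage ranges, naive in blue and Listeria in red, with 95% exact binomial intervals. Satb1, Dntt, Wfdc17 and Notch1 lead in the early Flt3-positive range, and Dntt and Blnk lead in the B-lineage range, where Wfdc17 is below 1% in both libraries.

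The megakaryocyte range served as the background, since platelet-forming cells are not known for lymphoid genes. The median cell of this range held 3 naive and 4 Listeria megakaryocyte markers, but also 3 of the 10 HSC markers in both libraries. The range thus includes cells with HSC markers and is not a pure measure of background. Its 389 naive and 429 Listeria cells had median depths of 9592 and 9646 UMIs. There the thinned share was 1.80% and 0.233% for Dntt, 1.80% and 0.699% for Satb1, 3.60% and 1.86% for Notch1, 0.514% and 0.466% for Wfdc17 and 2.31% and 3.50% for Il12a, naive and Listeria in turn. The early Flt3-positive shares of Dntt, Satb1, Wfdc17 and Notch1 stood above these in both libraries, whereas Il12a, at 4.11% and 4.41%, stood close to its background. Unthinned, Il12a was seen in 10.0% and 9.79% of the megakaryocyte range and in 9.92% and 12.4% of early Flt3-positive cells. The megakaryocyte cells were deeper, so these shares are not at equal depth. By level, early Flt3-positive cells stood at 17.2 naive and 18.7 Listeria CPM, against 11.2 and 9.75 CPM in the megakaryocyte range. The intervals of these levels overlapped in the naive library but not in the Listeria library (15.3 to 22.7 against 7.08 to 13.1). The thinned intervals of Il12a overlapped in both libraries. Whether its detection in early Flt3-positive cells is expression was not tested. Ly6d was in 0.257% of naive megakaryocyte cells and in 0 of 429 Listeria cells (up to 0.699%), Blnk in 0.514% and 0%, Il7r in 0.514% and 0%, and Rag1 and Rag2 in 0% of both. In early Flt3-positive cells the thinned shares of Rag1 and Rag2 rest on 4 and 0 naive cells and on 2 and 1 Listeria cells. That is too few to separate from the limit that a count of 0 allows in the background. Before thinning there were 12 and 1 naive and 5 and 3 Listeria UMIs. The naive megakaryocyte range then held 1 Rag1 UMI.

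Satb1 encodes a chromatin organiser needed for lymphoid differentiation of stem cells. It had a UMI in 31.0% of naive and 31.0% of Listeria early Flt3-positive cells and a level of 67.0 CPM (60.6 to 74.0) and 62.7 CPM (56.2 to 69.6). Its log2 ratio of Listeria over naive was -0.10 (-0.31 to 0.11). The libraries did not differ in Satb1 here beyond counting error. It was not restricted to this range, since it reached 179 and 130 CPM in the innate lymphoid progenitor range, 305 and 238 CPM in the few T and NK cells (41 and 22), and 54.9 and 39.9 CPM in the myeloid granule range. In the HSC range it stood at 19.8 and 13.9 CPM.

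Notch1 encodes the receptor that directs progenitors to the T lineage. It was detected in 20.4% and 18.5% of early Flt3-positive cells at 39.0 CPM (34.1 to 44.4) and 33.7 CPM (29.0 to 38.9), a log2 ratio of -0.21 (-0.50 to 0.07). It was at 25.4 and 23.9 CPM in the HSC range and 37.4 and 33.5 CPM in B-lineage cells, against 11.4 and 7.31 CPM in the megakaryocyte range. Notch1 was highest at 82.7 and 102 CPM in the few T and NK cells and 82.4 and 126 CPM in the dendritic range. The dendritic range held only 39 and 6 cells, and its Listeria value rests on 6 UMIs (46.3 to 274 CPM). By thinned share Notch1 was the most detected of the 10 genes in the HSC range, at 6.05% and 5.70%.

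Il7r encodes the interleukin-7 receptor alpha chain, through which lymphoid progenitors receive survival signals. Only 28 naive and 8 Listeria early Flt3-positive cells held a UMI of it, with 34 and 12 UMIs in all, or 5.79 CPM (4.01 to 8.08) and 2.16 CPM (1.12 to 3.77). The log2 ratio was -1.42 (-2.51 to -0.44). Il7r was lower in the Listeria library in this range, on few UMIs. In the innate lymphoid progenitor range, by contrast, it reached 149 CPM in 501 naive cells and 69.3 CPM in 206 Listeria cells, a log2 ratio of -1.11 (-1.41 to -0.82). In the myeloid granule range it had 0 UMIs in both libraries.

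Dntt encodes terminal deoxynucleotidyl transferase, which adds untemplated bases at antigen receptor joins. A UMI was found in 170 of 827 naive cells (20.6%, 17.9% to 23.5%) and 102 of 725 Listeria cells (14.1%, 11.6% to 16.8%) of the early Flt3-positive range. The UMIs were unevenly spread: 74 and 43 cells held 1 UMI, whereas 17 and 15 held over 10, with a highest cell of 32 and 34. The level was 128 CPM (119 to 138) and 102 CPM (94.0 to 111), and the log2 ratio of -0.33 (-0.48 to -0.17) lay at the limit of 0.32, on the log2 scale, beyond which a gene was counted as lower or higher. It was -0.03 in cells with at least 2 Flt3 UMIs, -0.11 in cells with no dendritic or plasma marker at all and -0.65 with a mitochondrial limit of 5%, so its size depended on how cells were chosen. In the HSC range Dntt was at 8.52 and 3.51 CPM, against a background of 6.46 and 0.886 CPM in the megakaryocyte range.

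Rag1 and Rag2 encode the recombinase that cuts antigen receptor genes. In the early Flt3-positive range Rag1 gave 12 naive and 5 Listeria UMIs, or 2.04 CPM (1.06 to 3.57) and 0.900 CPM (0.292 to 2.10). Rag2 gave 1 and 3 UMIs. Neither gene allowed a comparison between the libraries at this depth, with a log2 ratio for Rag1 of -1.18 (-3.04 to 0.43).

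Ly6d encodes a surface protein that separates B-biased from less restricted lymphoid progenitors, and Blnk encodes the adaptor that links the pre-B receptor to its downstream enzymes. Ly6d was found in 38 naive and 7 Listeria early Flt3-positive cells, with 167 and 23 UMIs, or 28.4 CPM (24.3 to 33.1) and 4.14 CPM (2.63 to 6.21). Its log2 ratio was -2.78 (-3.48 to -2.14). The UMIs were concentrated, since the highest cell held 18.0% of them in the naive library and 52.2% in the Listeria library. Blnk was found in 50 and 9 cells with 70 and 14 UMIs, or 11.9 CPM (9.29 to 15) and 2.52 CPM (1.38 to 4.23), a log2 ratio of -2.24 (-3.18 to -1.40). Both genes were lower in the Listeria library in this range, with the lowest log2 ratios of the 10. Other values moved with these differences. In the megakaryocyte range Ly6d had 8 naive and 0 Listeria UMIs and Blnk 11 and 5. In barcodes of 1 to 50 UMIs, which hold free RNA, Ly6d was at 121 and 38.7 CPM, Blnk at 140 and 60.5 CPM and Dntt at 247 and 131 CPM. The summed level of 8 dendritic markers in early Flt3-positive cells was 50.7 and 22.1 CPM, with 1 marker at 0 in each library, and that of 8 plasma markers was 44.8 and 25.2 CPM, with none at 0. With the megakaryocyte CPM subtracted, the log2 ratios were -2.67 for Ly6d, -2.70 for Blnk and -0.81 for Il7r, and in the 563 and 579 cells with no dendritic or plasma marker at all they were -2.51, -2.69 and -0.68. The part of free RNA and of such cells in the rest of the difference was not tested.

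Wfdc17 encodes a small secreted protein of the whey acidic protein family known from activated macrophages. A UMI was found in 21.6% and 16.0% of early Flt3-positive cells, at 64.7 CPM (58.3 to 71.5) and 48.8 CPM (43.2 to 55.0), a log2 ratio of -0.41 (-0.64 to -0.18). The early Flt3-positive range held its highest level among ranges of at least 20 cells, above 32.6 and 33.4 CPM in the myeloid granule range. Il12a encodes the alpha subunit shared by interleukin-12 and interleukin-35. It stood at 17.2 CPM (14 to 20.9) and 18.7 CPM (15.3 to 22.7), against 11.2 and 9.75 CPM in the megakaryocyte range, and its log2 ratio was 0.12 (-0.28 to 0.53).

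Over the 10 genes in early Flt3-positive cells, 6 were lower in the Listeria library by more than the limit of 0.32 (Dntt, Il7r, Ly6d, Blnk, Rag1 and Wfdc17) and 1 was higher (Rag2, on 1 and 3 UMIs). The background was 21.8% of 16078 genes lower and 29% higher. Among genes of at least 10 CPM in either library it was 7.01% lower and 22.8% higher, and 4 of the 10 genes passed both the level and the limit downward. For 5 genes the whole interval lay below 0, and for 0 genes above. The median log2 ratio of the 10 genes was -0.37, beside 0.08 over all genes of the range.

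**Figure D2:**
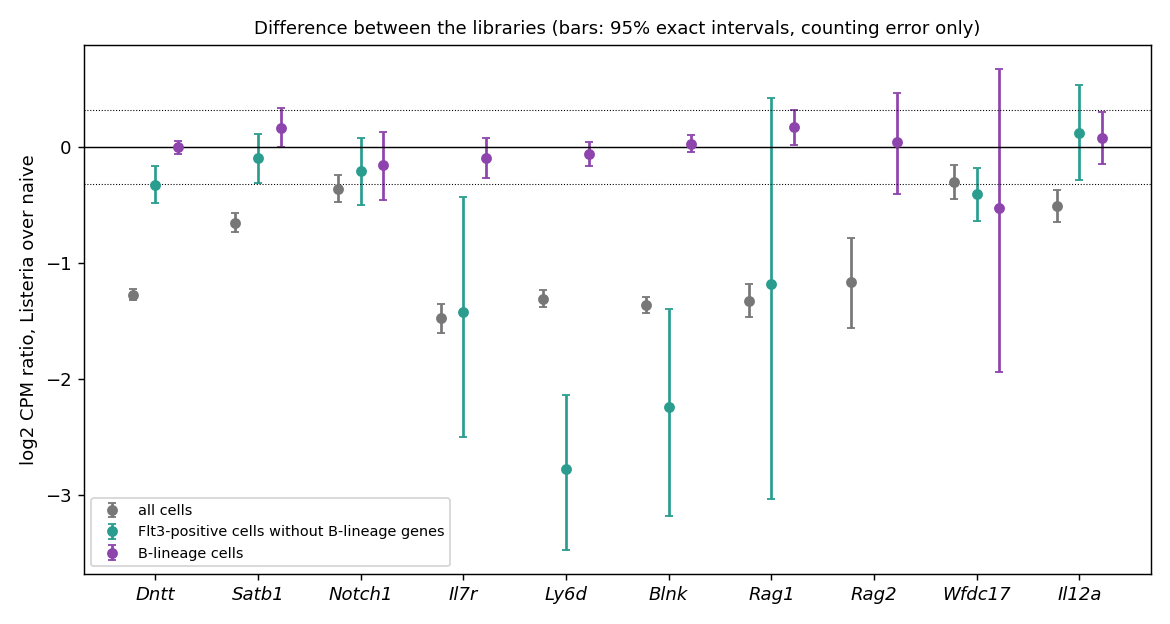
Log2 ratio of the Listeria over the naive library (vertical axis) for each gene over all cells, early Flt3-positive cells and B-lineage cells, with 95% counting intervals; Rag2 is left out for the early Flt3-positive range, where it had 1 and 3 UMIs. The ratios of Ly6d and Blnk are near -2.78 and -2.24 in early Flt3-positive cells and near 0 in B-lineage cells.

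The genes were detected together in the same cells. In the naive early Flt3-positive range, Satb1 was found in 58.8% of the 170 Dntt-positive cells (51.0% to 66.3%) and in 23.7% of the Dntt-negative ones (20.5% to 27.2%). In the Listeria library the shares were 64.7% of 102 and 25.5%. Median depth was 6670.5 and 6699 UMIs with and without Dntt in the naive library, so the Dntt-positive cells were not deeper there. Of the 28 naive cells with Il7r, 18 also held Dntt, beside 19.0% of the cells without Il7r. Of the 38 with Ly6d, 25 held Dntt (18.4% without Ly6d), and of the 50 with Blnk, 33 held Dntt (17.6% without Blnk). All but 1 of the 10 naive Rag1-positive cells held Dntt, as did all 5 in the Listeria library. These naive cells were deeper than the rest, with medians of 7657.5 against 6669 UMIs for Il7r, 7306 against 6675 for Ly6d, 6898.5 against 6669 for Blnk and 7607 against 6690 for Rag1, and the part of depth was not tested. In the naive library Il7r, Ly6d, Blnk and Rag1 were thus found mostly in cells that also held Dntt. Wfdc17 was found in 5 of the 38 naive cells with Ly6d (13.2%, 4.41% to 28.1%) and in 22.1% of those without, which the interval holds, and in 0 of the 7 Listeria cells with Ly6d. None of the 10 genes was detected in 312 naive (37.7%) and 325 Listeria (44.8%) early Flt3-positive cells, and the most in 1 cell was 7 in each library.

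Placing cells by Flt3 UMIs and then by the number of B-lineage genes gave the level of each gene along a series of marker states. The states are cuts on counts and not a measured time course. Dntt in cells with 0 B-lineage genes was at 31.0 naive and 9.09 Listeria CPM with 0 Flt3 UMIs, at 55.5 and 18.4 CPM with 1, at 81.0 and 137 CPM with 2, and at 435 and 406 CPM with 3 or more. It was higher at each step in both libraries while no B-lineage gene was detected. In Flt3-positive cells it was then 245 and 235 CPM with 1 or 2 B-lineage genes and 1006 and 950 CPM with 7 or 8. Wfdc17 traced an arch. In cells without B-lineage genes its level was 19.0, 40.0, 76.5 and 132 CPM in the naive library for 0, 1, 2 and 3 or more Flt3 UMIs, and 10.3, 26.5, 72.9 and 102 CPM in the Listeria library. In Flt3-positive cells with 1 or 2 B-lineage genes it was 49.1 and 57.3 CPM, and with 7 or 8 it was 2.61 and 2.49 CPM. The last values were below the 8.06 and 7.41 CPM of the HSC range, in the Listeria library within the counting interval (0.301 to 8.99).

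Ly6d followed neither course alike in the libraries. With 3 or more Flt3 UMIs and no B-lineage gene it was at 75.4 CPM (59.6 to 94.1) in 140 naive cells and at 10.4 CPM (4.51 to 20.6) in 99 Listeria cells. With 1 or 2 B-lineage genes it was at 72.2 and 22.4 CPM, and with 7 or 8 at 308 CPM (287 to 330) and 346 CPM (306 to 389). The libraries differed while few B-lineage genes were detected, and in the last state their intervals overlapped. Rag1 was at 6.77 and 2.61 CPM with 3 or more Flt3 UMIs, at 11.9 and 4.86 CPM with 1 or 2 B-lineage genes and at 101 and 144 CPM with 7 or 8. In the naive cells with 3 to 6 B-lineage genes, 50 in number, Rag1 stood at 163 CPM (124 to 210), Satb1 at 193 CPM (151 to 244) and Ly6d at 417 CPM (353 to 489). These were above the levels of 101, 92.3 and 308 CPM with 7 or 8 genes. The Listeria library had 6 such cells and is not compared there.

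**Figure D3:**
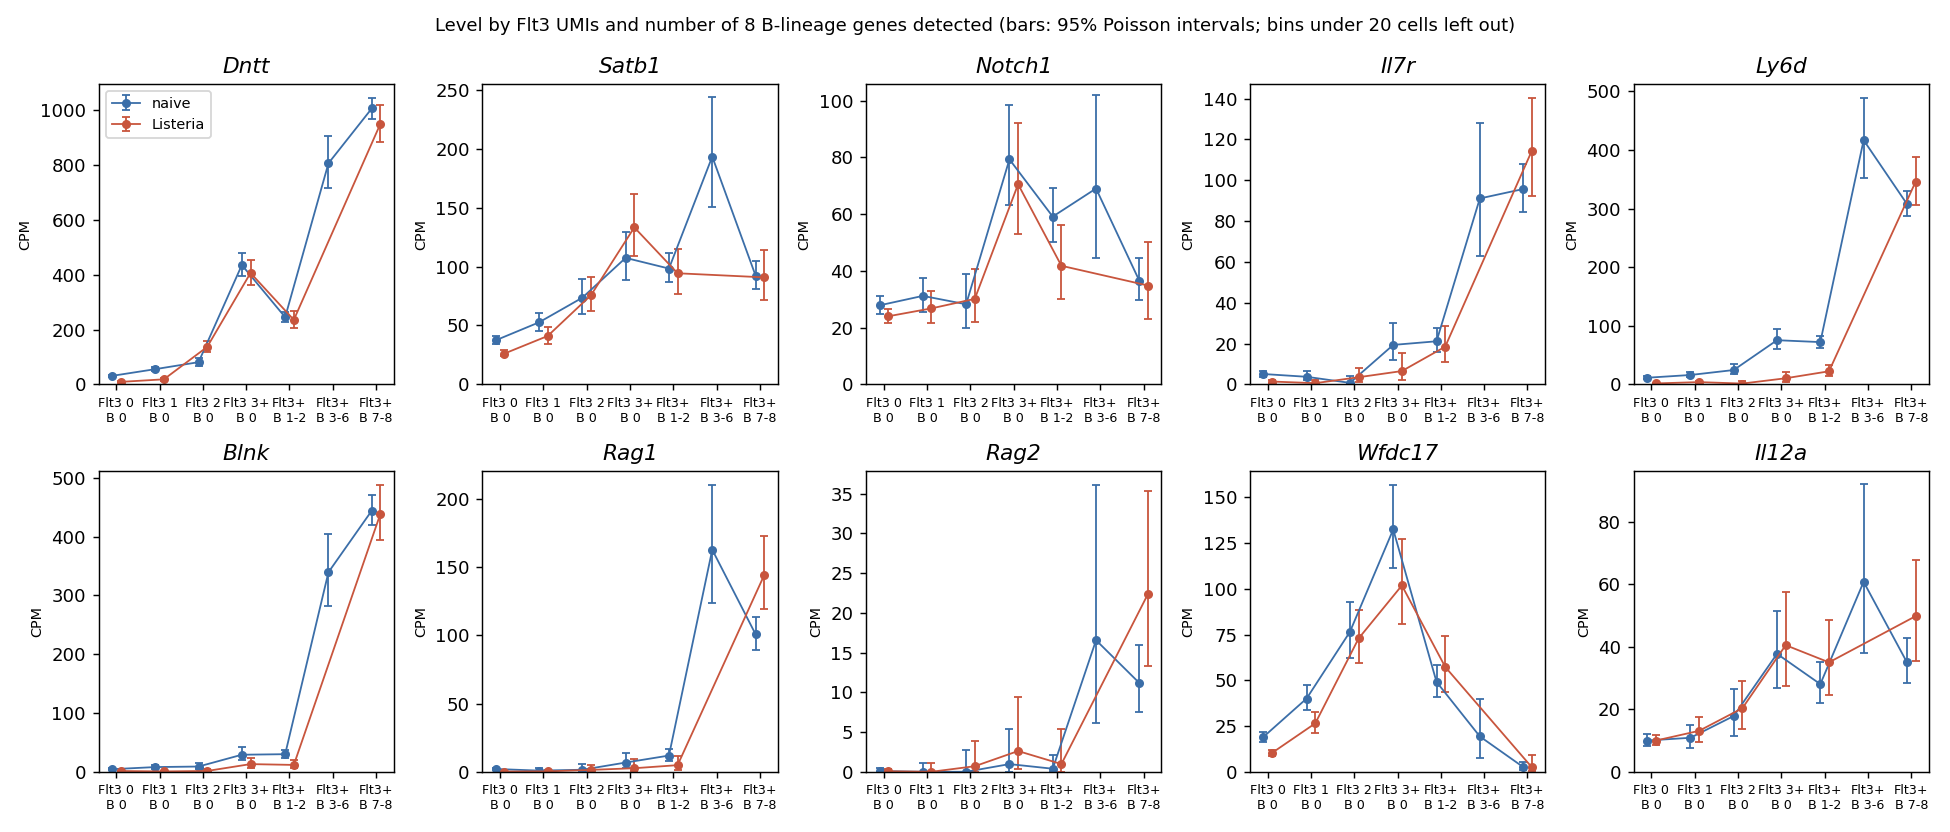
Level of each gene in CPM (vertical axes, from 0) in cells ordered by Flt3 UMIs and by how many of 8 B-lineage genes were detected, naive in blue and Listeria in red, with 95% Poisson intervals and states under 20 cells left out. Dntt reaches 1006 naive and 950 Listeria CPM in the last state, while Wfdc17 is highest, at 132 and 102 CPM, with 3 or more Flt3 UMIs and ends at 2.61 and 2.49 CPM.

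In B-lineage cells the order was different. Dntt and Blnk were found in nearly all cells, Ly6d in most, Il7r, Rag1 and Satb1 in 48.1% to 58.0%, and Wfdc17 in almost none. The thinned shares were 80.9% naive and 78.9% Listeria for Dntt, 70.6% and 67.6% for Blnk and 38.3% and 38.2% for Ly6d, and each of these 3 stood apart from the next in both libraries. Il7r (23.9% and 21.4%), Rag1 (23.2% and 28.1%) and Satb1 (21.6% and 22.2%) overlapped their neighbours. Il12a followed at 15.3% and 13.4%, Notch1 at 10.7% and 6.68%, Rag2 at 3.18% and 4.01% and Wfdc17 at 0.775% and 0.535%, the last being close to its background of 0.514% and 0.466%. Of the 45 pairs, 43 stood in the same order in both libraries, and those that changed places were Satb1 with Il7r and Il7r with Rag1. Unthinned, Dntt was found in 95.5% and 93.3% of B-lineage cells, Blnk in 94.7% and 96.0%, Ly6d in 63.6% and 62.8%, Il7r in 50.1% and 48.1% and Rag1 in 49.4% and 52.1%. Il12a stood here at 54.6 and 57.6 CPM, above its 11.2 and 9.75 CPM in the megakaryocyte range.

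Over all B-lineage cells, dividing or not, 9 of the 10 intervals of the log2 ratio held 0. In the cells of this range not called dividing, described below, 9 of the 10 ratios lay outside these intervals. That compares point values of 349 and 61 cells with intervals of all B-lineage cells. The counting error of the ratios in the smaller set is not given, so it does not show that 9 genes differ there. Dntt was at 965 CPM (948 to 983) and 963 CPM (932 to 995), Blnk at 490 and 500 CPM, Ly6d at 267 and 257 CPM and Il7r at 101 and 94.8 CPM. Their log2 ratios were -0.003 for Dntt (-0.06 to 0.05), 0.03 for Blnk (-0.05 to 0.10), -0.06 for Ly6d (-0.16 to 0.05) and -0.09 for Il7r (-0.27 to 0.08). Rag1, at 113 and 128 CPM, was the one gene whose interval lay wholly above 0, at 0.17 (0.02 to 0.32), which is under the limit of 0.32. Rag2 stood at 15.5 and 15.9 CPM. Of the 10 genes 1 was past that limit downward (Wfdc17, on 33 and 7 UMIs, at -0.52 with an interval of -1.95 to 0.68) and 0 upward, against a background of 28.7% lower and 18.3% higher among 16061 genes. Among genes of at least 10 CPM it was 6.94% lower and 8.54% higher, and 0 of the 9 genes at that level passed. The median log2 ratio was 0.01, beside -0.02 over all genes. An interval around 0 does not show that the libraries act alike, and Dntt, Blnk and Ly6d are bounded here to within 0.16 of 0 downward and 0.10 upward.

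Over all cells, 9 of the 10 genes were lower in the Listeria library by more than 0.32 on the log2 scale and 0 were higher, against 25.2% lower and 24.8% higher among 19713 genes. Of the 9 genes of at least 10 CPM, 8 were lower, against 8.62% lower and 15.1% higher among such genes. The ratios ran from -1.48 for Il7r (-1.60 to -1.35) and -1.37 for Blnk (-1.44 to -1.30) to -0.36 for Notch1 (-0.48 to -0.25), with Wfdc17 at -0.30 (-0.45 to -0.15). The count was 9 again without the 14 shared barcodes. The share of B-lineage cells was 20.3% and 7.73% in the same libraries. In a sum over all cells, fewer cells of a type and less RNA per cell cannot be told apart, and the log2 ratios over all B-lineage cells ran from -0.52 (Wfdc17) to 0.17 (Rag1). In the HSC range Il7r had 11 naive UMIs and 0 Listeria UMIs, and Dntt, at 8.52 and 3.51 CPM, had a log2 ratio of -1.28 (-2 to -0.59). Ly6d had 19 and 2 UMIs there, and Satb1 a log2 ratio of -0.51 (-0.89 to -0.13). The megakaryocyte background moved the same way, with 8 and 0 UMIs of Il7r, 8 and 0 of Ly6d and a log2 ratio of -2.86 (-4.84 to -1.34) for Dntt, and its part in these differences was not tested. Satb1, at 19.8 and 13.9 CPM, stood above its 7.2 and 5.32 CPM in the megakaryocyte range, as did Notch1, at 25.4 and 23.9 against 11.4 and 7.31 CPM.

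Division separated the B-lineage cells further. A cell was called dividing when it held at least 2 UMIs of 10 mitotic genes such as Mki67 and Top2a, which gave 942 naive and 313 Listeria dividing cells and 349 and 61 others. Rag1 was at 94.3 CPM (88.4 to 101) in dividing and 196 CPM (178 to 215) in other naive cells, and at 106 CPM (95 to 117) and 330 CPM (273 to 394) in the Listeria library. Ly6d was at 249 against 347 CPM in the naive library and 233 against 474 CPM in the Listeria library. Both genes were higher in the cells not called dividing in each library. Depth differed, with medians of 9937 and 5855 UMIs in the naive and 10019 and 4684 in the Listeria library, and after thinning the Rag1 share was 18.8% against 35.0% and 25.2% against 42.6%. Dntt did not follow this split, with 967 against 958 CPM naive and 956 against 1027 CPM in the Listeria library. Rag2 gave 16.9 against 9.47 CPM in the naive library and 15.6 against 19.1 CPM in the Listeria library, so its direction was not shared. Among cells not dividing, the log2 ratio of Listeria over naive was 0.75 for Rag1, 0.45 for Ly6d and 0.63 for Il12a, which differs from the values near 0 over all B-lineage cells and rests on 61 Listeria cells. It was 1.01 for Rag2 and 0.81 for Wfdc17, both on few UMIs, and 0.10 for Dntt.

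**Figure D4:**
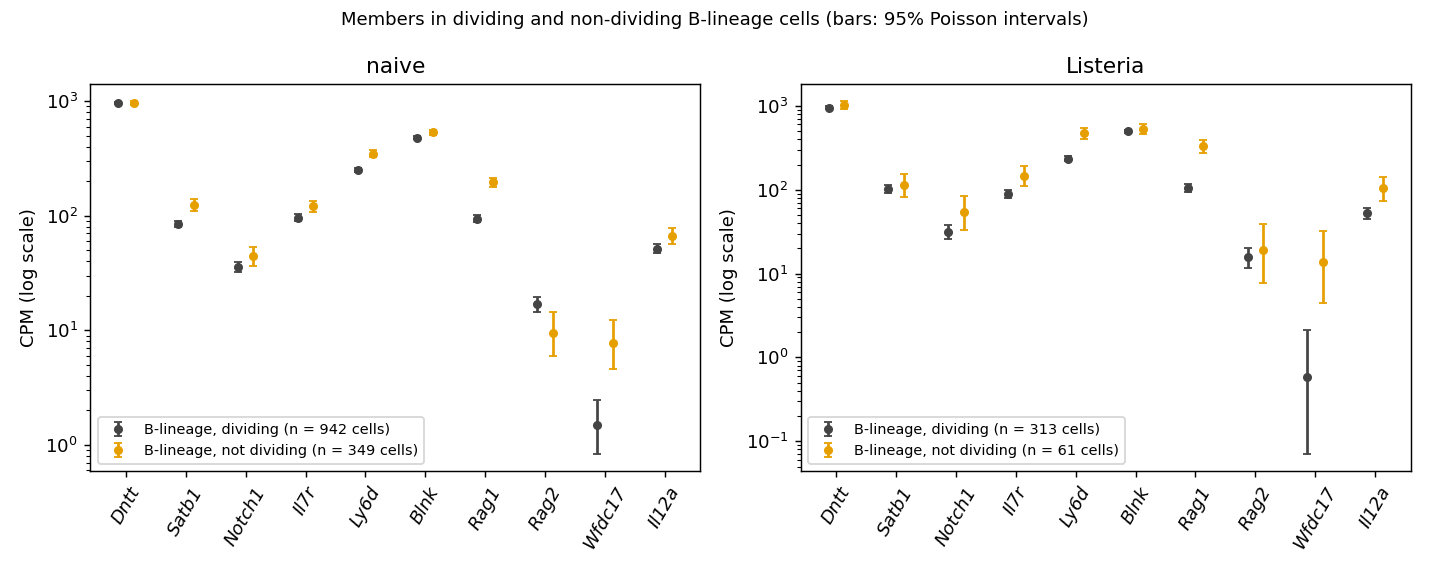
Level of each gene in dividing and other B-lineage cells of the naive and Listeria libraries, in CPM with 95% Poisson intervals. Rag1 is higher in the cells not called dividing in both libraries (196 against 94.3 and 330 against 106 CPM), and Dntt is level.

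Several of the 10 genes were detected outside both ranges. Of those given here, Ly6d was highest there, whereas Blnk, Dntt and Rag1 were highest in B-lineage cells. Ly6d reached 1033 naive and 1057 Listeria CPM in the plasma range (52 and 28 cells, with a UMI in 86.5% and 96.4%) and 1771 CPM in 39 naive dendritic cells, so a Ly6d UMI by itself does not place a cell in the B lineage. Blnk stood at 228 CPM in those dendritic cells. Dntt was at 113 and 85.1 CPM in the innate lymphoid progenitor range, while Blnk there was at 3.97 and 1.75 CPM, near its level in the megakaryocyte range (2.73 and 1.11 CPM). Rag1 had 26 and 2 UMIs in the innate lymphoid progenitor range and 0 in the myeloid granule and dendritic ranges of both libraries.

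Likeness was measured as Pearson's r of log2(CPM + 10) over 19 points, the ranges of at least 20 cells in each library, across 10913 genes that were neither among the 10 nor markers. The points share libraries, depth and marker rules, so r is a description. The most similar genes were Cd37 (0.93) and Dpp4 (0.90) for Dntt, Akna (0.91) and Bcl2l11 (0.90) for Satb1, Ubl3 and Malt1 (0.93 and 0.92) for Notch1, and Arpp21 (0.92) and Lbh (0.90) for Il7r. For Ly6d they were Ly6e and Filip1l (0.93 each), for Blnk Slamf6 (0.98) and Blk (0.93), for Rag1 Bfsp2 (0.98) and Vpreb2 (0.97), and for Rag2 Gfra1 (0.98) and Chst3 (0.97). Wdfy4 (0.91) was among the genes most similar to Il12a. Wfdc17 had the lowest best match of the 10, with Il1r2 at 0.83 and Cd44 at 0.77. Among the 10 genes themselves Rag1 and Rag2 had an r of 0.93 and Satb1 and Notch1 of 0.83, while Wfdc17 had an r of -0.29 with Rag1.

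The partners of these genes in their pathways were counted at 10 CPM or more in either library. The background at that level was 7.01% lower and 22.8% higher in early Flt3-positive cells and 6.94% and 8.54% in B-lineage cells, so a count of 1 gene in a list of this length is read as no result about that list. The most abundant are named, and those named for passing the limit of 0.32 were chosen after their values were seen. Of 9 lymphoid transcription factors measured in early Flt3-positive cells, 1 was past it downward in the Listeria library (Ets1, 20.6 and 13.9 CPM) and 0 were higher. The most abundant, Mef2c, stood at 577 and 544 CPM and Spi1, which encodes PU.1, at 221 and 227 CPM. Of the 6 genes of interleukin-7 receptor signalling 0 passed the limit in either direction, with the kinase gene Jak1 at 274 and 287 CPM and the shared receptor chain Il2rg at 106 and 94.2 CPM. Of 4 Notch pathway genes 0 passed either way, with Rbpj, which encodes the DNA-binding partner of cleaved Notch, at 98.7 and 108 CPM. Of 7 end joining and recombination genes 1 was lower (Dclre1c, which encodes Artemis, 18.0 and 13.9 CPM, with an interval of -0.82 to 0.06) and 0 were higher, and of 5 pre-B receptor signalling genes 1 was higher (Btk, 31.7 and 40.7 CPM) and 0 lower. Of the interleukin-12 family only Ebi3 was measured, at 14.3 and 20.5 CPM, past the limit upward. The median log2 ratios of the transcription factor, interleukin-7 receptor, Notch, end joining and pre-B receptor lists lay between -0.04 and 0.17, beside 0.12 over all genes of at least 10 CPM. Of 5 mitotic genes, whose median was 0.39, 3 were higher in the Listeria library, among them Mki67 (65.3 and 85.3 CPM) and Top2a (56.2 and 82.6 CPM). In B-lineage cells 0 of 10 transcription factors, 0 of 6 interleukin-7 receptor genes and 0 of 7 pre-B receptor genes passed the limit. Of 5 Notch pathway genes Nrarp was lower (21.9 and 16.2 CPM) and Dtx4 higher (9.81 and 13.8 CPM), and of 8 end joining genes Dclre1c and Xrcc4 were lower. Among 10 mitotic genes Top2a (877 and 1177 CPM) and Cdk1 (83.6 and 125 CPM) were higher in the Listeria B-lineage cells and 0 were lower.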

How the data were processed

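The matrices deposited by the authors held raw counts, without normalization: the UMIs of each gene in all barcodes. Libraries were made with a 10x Genomics 3′ kit per the labels' protocols, and Cell Ranger 3.0.2 and mm10 are named in the submitters' processing notes. Reads were not analysed here. Barcodes with at least 2500 UMIs, at least 500 genes and at most 10% mitochondrial UMIs were kept. This removed 9 naive and 17 Listeria barcodes for few genes and 216 and 54 for mitochondrial UMIs. Doublets were not called.

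Counts were summed over the cells of a range and scaled to 1e+06 (CPM), in Python 3.11.15 with numpy 2.4.6, scipy 1.17.1 and pandas 2.3.3. Exact intervals were computed at 95%, a share of 0 was given the limit of 3 counts, and thinning used a fixed random seed. Log2 ratios beyond 0.32 in either direction were counted, without a test. Pathway genes were named by highest CPM, up to 4 per list, and likeness used genes with at least 200 UMIs. The steps were tested on simulated data. Alternatives varied the cell filters, the ranges, scaling (edgeR 4.0.16 and DESeq2 1.42.0 factors in R 4.3.3), the fold limit and subtraction of background. The 10 genes, the markers and the lists were chosen with earlier results of these data known. Some gene names are not reported here.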

Additional observations from a re-analysis of the deposited data

How the results depend on the processing

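No paired analysis was possible because there was 1 library per group. No log2 ratio whose main interval excluded 0 changed sign under the alternatives run. Signs did change where that interval held 0, among others for Wfdc17 (-0.52 to 0.81) and Ly6d (-0.06 to 0.45) in B-lineage cells not dividing. Of 228 recomputed log2 ratios 207 stayed within the main counting interval and 21 moved outside it, and of 200 thinned shares 181 stayed. The count of genes lower over all cells was 9, between 7 (fold limit of 1.5) and 10 (TMM factors, median-ratio size factors, or without the 5% of cells with the most UMIs, each of which took Wfdc17 past the limit). In early Flt3-positive cells it was 6, between 4 and 6. In B-lineage cells it was 1, on 33 and 7 UMIs of Wfdc17, and 0 with B-lineage cells from 5 of 8 genes, with the CPM of the megakaryocyte range subtracted, with a fold limit of 1.5 and for genes with at least 10 CPM. It was also 0 in B-lineage cells not dividing, an alternative chosen after seeing the data, as were those without shared barcodes and without any dendritic or plasma marker. Pairs in the same order numbered 37 to 42 in early Flt3-positive and 43 to 44 in B-lineage cells. TMM factors moved all ratios by -0.05, -0.10 and -0.03 over all, early Flt3-positive and B-lineage cells. Depth limits Rag1, Rag2, Il7r, Ly6d and Blnk in early Flt3-positive cells. The highest single cell held 18.0% naive and 52.2% Listeria of the Ly6d UMIs, 8.82% and 33.3% for Il7r and 7.14% and 28.6% for Blnk. The 1 library per group limits every difference.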
